A study of Mus musculus with 12 samples.

Results

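The comparison described here is the regional difference in IP enrichment, that is, whether a transcript was concentrated on tagged ribosomes to a different degree in the hypothalamus than in the midbrain. For each gene it is the log2 ratio of immunopurified RNA (IP) over input RNA in the hypothalamus minus the same ratio in the midbrain. A positive value therefore means the larger enrichment in the hypothalamus and a negative value the larger enrichment in the midbrain. It used all 12 of the 12 libraries of the series, 3 each of hypothalamus IP, hypothalamus input, midbrain IP and midbrain input. The IP and the input with the same region and replicate number were taken as fractions of 1 dissected tissue, which gives 6 dissections.

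All 4 groups came from adult mice of 1 transgenic line, Slc17a6-EGFP/Rpl10a JX883, and the labels name no other genotype and no treatment. In this line the ribosomal protein Rpl10a carries EGFP under regulatory sequence of Slc17a6. IP libraries hold ribosome-bound RNA captured with antibodies against EGFP, and input libraries hold total RNA. The sources used here do not give whether a dissection holds 1 animal or several, so the p-values measure only the spread between these dissections. No IP from mice without the tag is named in the labels. All IP libraries share 1 sequencing index and all inputs another, while both regions of a given number were on separate lanes, so neither fraction and index nor region and lane can be told apart.

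Slc17a6 encodes VGLUT2, the transporter that loads glutamate into synaptic vesicles in most excitatory neurons below the cortex. Translating ribosome affinity purification (TRAP) captures the transcripts that such neurons are translating, while the input also holds the RNA of inhibitory neurons, glia and vessels. Hypothalamic neurons release many peptides that govern feeding, arousal, growth and reproduction, and the midbrain holds the colliculi, tegmentum and dopamine nuclei. Each region keeps, in the adult, transcription factors that patterned it in the embryo. In such bulk libraries fewer cells of a type and less RNA per cell cannot be told apart.

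Libraries held between 41909019 and 55148109 counts over genes, and a count of 3, used as the floor of detection, came to between 0.0544 and 0.0716 CPM (counts scaled to a common library size). Because the reads carry no molecular identifiers, this floor covers counting error only. Levels below are CPM scaled by the trimmed mean of M values (TMM), and 3 values in a row stand for replicates 1, 2 and 3. Rn45s, a precursor of ribosomal RNA, made up 12.3% and 12.5% of both replicate 1 IPs and between 5.21% and 6.85% in the other IPs. Some dissections held markers of neighbouring tissue. The summed level of 10 blood and pituitary genes was 65.2, 1719 and 25 CPM in the hypothalamus inputs, and the prolactin gene Prl alone stood at 994 CPM in replicate 2. The summed level of 13 thalamic genes was 465, 817 and 2646 CPM in the hypothalamus IPs. The choroid plexus gene Ttr was at 7.21, 0.788 and 888 CPM in the midbrain inputs.

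A small share of genes differed in enrichment between the regions. Among 18128 genes tested, 62 had the larger enrichment in the hypothalamus, 0.342% of the genes tested, and 36 had the larger enrichment in the midbrain, 0.199%. A gene counted when the adjusted p of edgeR's paired quasi-likelihood test, with Benjamini-Hochberg adjustment over all genes, was under 0.05. The difference exceeded 2-fold in 59 of the 62 and in 32 of the 36. Across all genes tested the median difference was -0.02, and 1650 genes had an unadjusted p under 0.05. With library size alone as the scale, the median of all genes was -0.1 and the calls split 52 to 53, or 49.5% larger in the hypothalamus against 63.3% with TMM. Without the pairing of IP and input the counts were 11 and 3. Leaving out hypothalamus replicate 2 lowered them to 21 and 8, leaving out midbrain replicate 2 to 33 and 11, and leaving out hypothalamus replicate 3 raised them to 79 and 60. A block by replicate number over both regions in place of the 6 dissections called 73 of the 98 again and limma-voom 79. Among the genes described below, Nkx2-1, Pmch, Hcrt, Six3, Pnoc, Sst, Tac1, Cbln4, Gabrq, Kcnd3, Unc5d and Cd44 did not pass with that block (adjusted p from 0.0518 for Six3 to 0.624 for Pmch). With limma-voom Nkx2-1, Pmch, Hcrt, Six3, Cd44, Cbln4, S100b, Zfp36l1, Dio2, Grik1, Ppp1r1b, Barhl1, Cp, Abca9 and Pou4f2 did not (from 0.0541 for Nkx2-1 to 0.404 for Hcrt).

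In all 98 called genes the 3 IP-minus-input differences of one region lay wholly above those of the other. Over all genes tested, 6.62% showed this with the hypothalamus above and 8.01% with the midbrain above. Most genes had enrichment of the same sign in both regions, 83.1% of all tested, and the regional effects correlated across genes with a Pearson r of 0.809, where genes are not independent replicates and share the same libraries. Enrichment over input itself was far more common than a regional difference. In the hypothalamus 18.4% of genes were higher in the IP and 22.1% lower, and in the midbrain 19.3% and 21.5%.

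**Figure D1:**
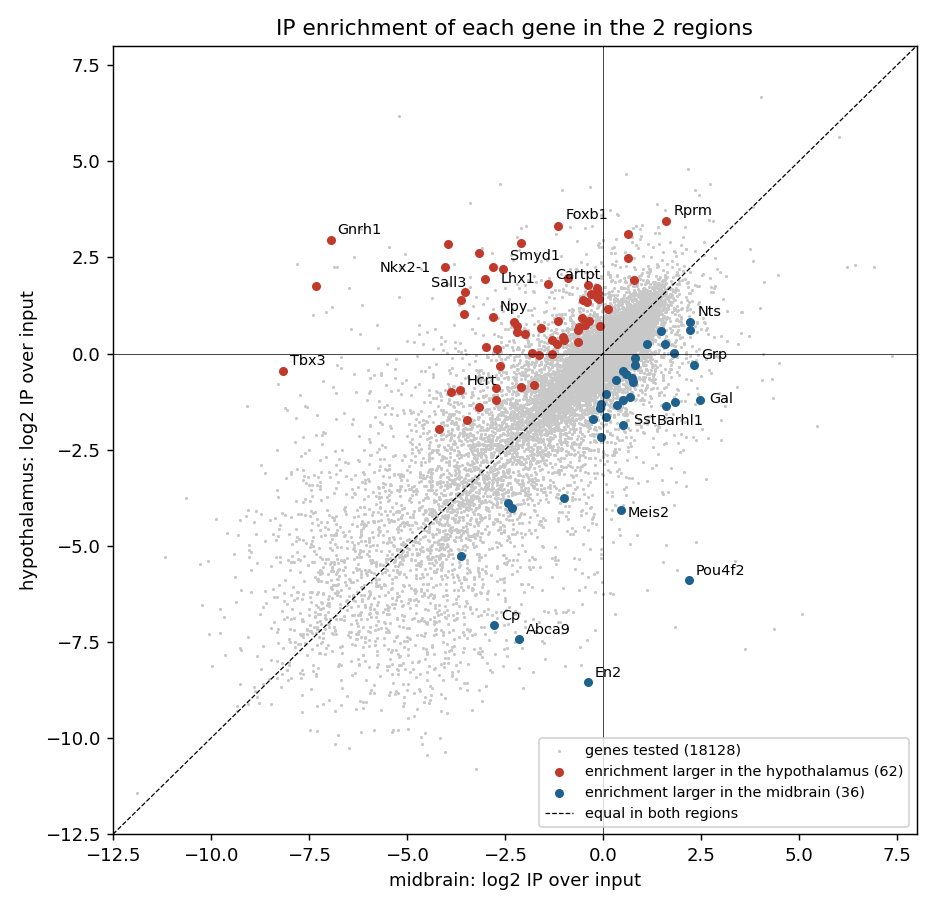
Each point is a gene, with its log2 IP over input in the midbrain on the horizontal axis and in the hypothalamus on the vertical axis, both from the paired fit over 12 libraries; coloured points are the 62 genes with the larger enrichment in the hypothalamus and the 36 with the larger enrichment in the midbrain, and the dashed line marks equal enrichment. Most genes lie along the line, while Gnrh1, Tbx3 and Nkx2-1 stand to the left of it and En2, Pou4f2 and Meis2 below it.

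Slc17a6 itself (mm10 chr7:51622006-51671119) was enriched in both regions. Its level was 3490, 1120 and 1740 CPM in the hypothalamus IP and 518, 218 and 311 CPM in the input. Midbrain levels were 3950, 1860 and 2390 CPM in the IP and 1240, 501 and 589 CPM in the input. Replicate 1 was the highest in each group, and every IP was above every input of its region. The log2 enrichment was 2.75, 2.37 and 2.49 in the hypothalamic dissections and 1.68, 1.9 and 2.02 in the midbrain ones, which did not overlap. The regional difference of 0.67 (SE 0.15, adjusted p = 0.0882) did not pass. Over the 16 alternatives its adjusted p ran from 0.0104 with DESeq2 to 0.995 without the pairing. Here and below, SE is the absolute difference divided by the square root of the F statistic of edgeR's test. It is thus derived from the test and is not a separately fitted standard error. Rpl10a (mm10 chr17:28328471-28331033), whose own transcript may also collect reads of the tagged fusion, was at 3.59, 5.64 and 6.33 CPM in the hypothalamus IP and 4.63, 6.1 and 5.86 CPM in the midbrain IP. Its inputs were at 8.15, 8.45 and 8.03 CPM and at 6.88, 6.45 and 6.24 CPM, and its regional difference was -0.45 (SE 0.4, adjusted p = 0.864).

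Several transcription factors of hypothalamic development were among the genes with the larger hypothalamic enrichment. Of 33 such factors tested, 7 had the larger enrichment in the hypothalamus and 1, Barhl1, in the midbrain, against 0.342% and 0.199% of all genes. The median difference over the list was 1.91, or 1.7 over the 25 factors with a value when genes without a count in a group were set at their bound, against -0.02 over all genes. Leaving out midbrain replicate 3 brought the 1.91 to 0.77. Of the 33 factors, 11 had no count in any midbrain IP, and their fitted values depend on the prior count. With a prior count of 2, the list's median enrichment was -0.01, -0.25 and 0.28 in the hypothalamic dissections. In the midbrain ones it was -0.69, -0.6 and -1.13, a smaller gap than 1.91 and without overlap. The other 25 factors did not pass, among them Isl1 at 3.19 (adjusted p = 0.06) and Otp at 3.76 (adjusted p = 0.29).

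Nkx2-1 (chr12:56531958-56536908), a homeobox factor needed to form the ventral hypothalamus, was at 260, 206 and 114 CPM in the hypothalamus IP and 42.7, 43.6 and 30.5 CPM in its input. Midbrain levels were 0.0213, 0 and 0.0846 CPM in the IP and 0.0769, 0.124 and 1.68 CPM in the input. Every hypothalamic IP was above its input and every midbrain IP below it, although the midbrain values rest on 5 counts in the IPs and 81 in the inputs. The regional difference was 6.28 (SE 0.51, adjusted p = 0.000132), and it passed in each of the 6 leave-outs of a dissection. It did not pass with a block by number (adjusted p = 0.206), with limma-voom (0.0541) or without the pairing (0.18). An annotated gene on the opposite strand, Gm26973, overlaps Nkx2-1, and the strand setting of the counting is not known.

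Tbx3 (chr5:119670669-119684724), a T-box factor of tuberal hypothalamic neurons, had no count in any midbrain IP, while the midbrain inputs held 0.941, 0.56 and 0.662 CPM. In the hypothalamus it was at 13.1, 10.7 and 1.37 CPM in the IP and 11.1, 15.1 and 3.02 CPM in the input, so the fractions overlapped there. With the midbrain IP set at the floor, the difference was at least 3.05 on the log2 scale (adjusted p = 0.0148 in the fit). The call was lost without hypothalamus replicate 2 (adjusted p = 0.072). Tbx3os1 overlaps it on the opposite strand.

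The LIM-homeobox genes Lhx1 and Lhx5, which specify neurons of the mammillary region and hypothalamus, had similar values in these libraries. Lhx1 (chr11:84518284-84525535) was at 67.1, 59.3 and 32.9 CPM in the hypothalamus IP and 14, 11.7 and 7.25 CPM in the input. In the midbrain the order was turned around, with 0.616, 1.98 and 0.973 CPM in the IP and 10.7, 7.13 and 6.15 CPM in the input. Inputs of the regions thus lay within a similar range, and the IPs were apart. Its regional difference was 5.06 (SE 0.46, adjusted p = 0.000339). Lhx5 (chr5:120431699-120441223) was at 16.8, 17.2 and 16.9 CPM in the hypothalamus IP against 0.213, 0.557 and 0.275 CPM in the midbrain IP, with inputs of 5.35, 6.37 and 5.16 CPM and 4.15, 5.1 and 2.58 CPM. Its difference was 5.12 (SE 0.44, adjusted p = 0.000209). Lhx1os (chr11:84525660-84535831), a long noncoding RNA transcribed away from Lhx1, had a difference of 5.76 (SE 0.45, adjusted p = 0.000125), with 83.2, 51.7 and 33.2 CPM in the hypothalamus IP and 0.999, 0.48 and 1.04 CPM in the midbrain IP. All 3 calls held in each leave-out and without the pairing.

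Foxb1 (chr9:69757710-69760940), a forkhead factor of the mammillary body, had the larger enrichment in the hypothalamus with a small SE. It was at 166, 172 and 100 CPM in the hypothalamus IP and 11.7, 18.5 and 13.1 CPM in the input. Midbrain levels were 2.17, 3.97 and 1.69 CPM in the IP and 5.03, 8.19 and 3.86 CPM in the input. The difference of 4.47 (SE 0.26, adjusted p = 1.25e-05) held in each leave-out. B230323A14Rik overlaps Foxb1 on the opposite strand and had a difference of 4.96 (SE 0.59, adjusted p = 0.00289), so reads of the pair cannot be assigned between them. Sall3, a zinc-finger factor, was at 82.5, 80.6 and 41 CPM in the hypothalamus IP and 14.6, 22.1 and 15.2 CPM in the input, against 0.999, 0.614 and 0.381 CPM and 7.19, 6.12 and 2.7 CPM in the midbrain. Its difference was 4.93 (SE 0.34, adjusted p = 4.51e-05).

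Six3 (chr17:85613608-85629302), a homeobox factor of the anterior forebrain that is also a marker of GABAergic neurons, differed in another way. It was lower in the IP than in the input in both regions, with 28.4, 21.4 and 15.2 CPM against 59.3, 96.3 and 93.3 CPM in the hypothalamus and 0.914, 3.36 and 2.45 CPM against 25.9, 48.5 and 38.3 CPM in the midbrain. The depletion was the stronger in the midbrain, by 2.22 (SE 0.39, adjusted p = 0.0288). The call ended without hypothalamus replicate 2 (adjusted p = 0.0839) and without midbrain replicate 1, 2 or 3 (adjusted p = 0.0766, 0.0785 and 0.0506). Several annotated genes overlap Six3.

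Forebrain homeobox genes outside the hypothalamic list followed. Emx2 (chr19:59458372-59465357), a cortical patterning gene, was at 3.4, 11.2 and 3.5 CPM in the hypothalamus IP and 2.34, 1.11 and 2.52 CPM in the input. Midbrain values were 0.871, 1.04 and 0.254 CPM in the IP and 6.67, 10.3 and 7 CPM in the input. The midbrain IPs lay below all other libraries, and the difference was 4.99 (SE 0.85, adjusted p = 0.0244). It did not pass without hypothalamus replicate 2 (adjusted p = 0.0589), midbrain replicate 2 (0.0865) or midbrain replicate 3 (0.0521). Its antisense partner Emx2os, which overlaps it, had a difference of 4.56 (SE 0.62, adjusted p = 0.00653). Otx1 (chr11:21994764-22002897), an orthodenticle homeobox gene of forebrain and midbrain, was at 8.42, 4.37 and 3.11 CPM in the hypothalamus IP and 3.77, 5.44 and 3.93 CPM in the input, and at 0.893, 1.32 and 1.38 CPM and 9.11, 7.76 and 11.7 CPM in the midbrain. Its difference of 3.15 (SE 0.54, adjusted p = 0.0261) was lost without hypothalamus replicate 2 (adjusted p = 0.0705) and without each of the midbrain dissections (between 0.0617 and 0.0719).

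**Figure D2:**
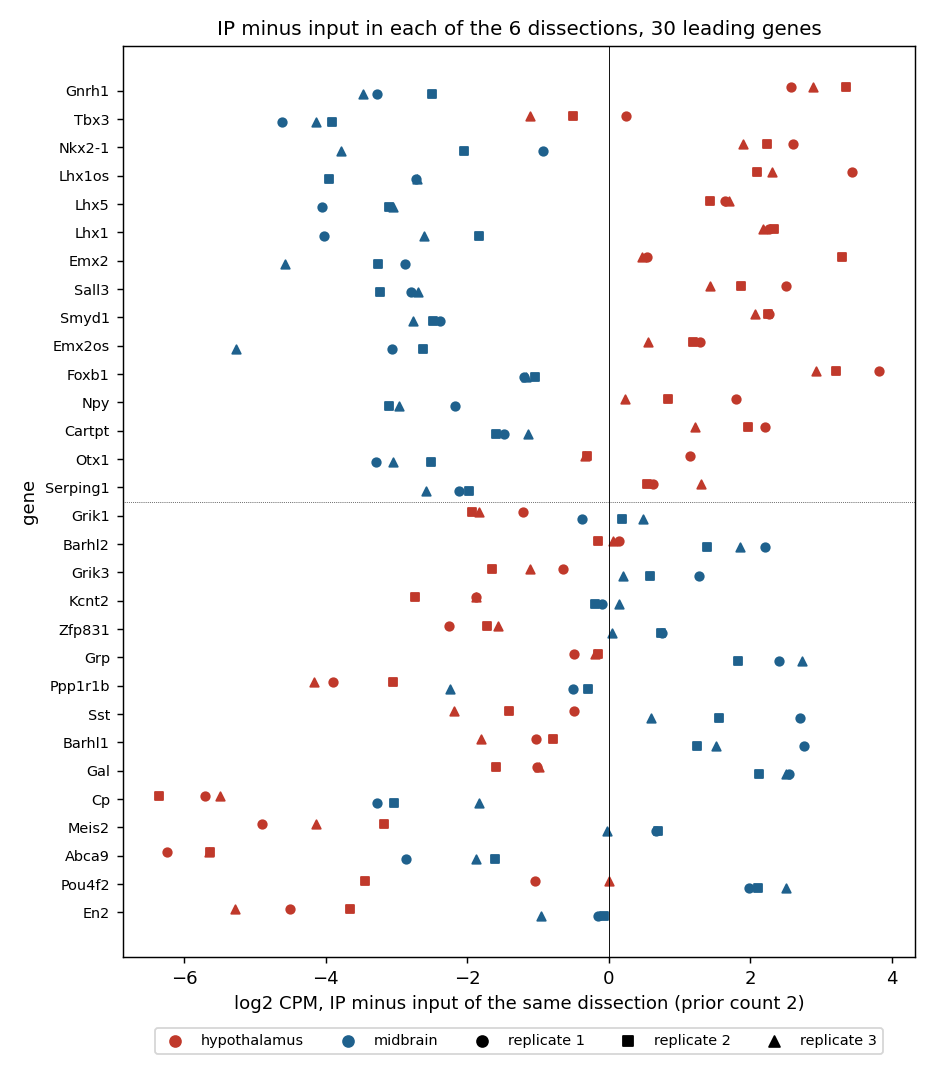
The horizontal axis gives log2 CPM of the IP minus that of the input in each of the 6 dissections, with a prior count of 2, for the 15 leading genes in each direction; red marks are hypothalamus, blue marks are midbrain, and the marker shape is the replicate number. In every row the red and blue marks do not overlap, which the rule for naming these genes required.

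Transcription factors of the midbrain were divided. Of 38 tested, 4 had the larger enrichment in the midbrain (En2, Pou4f2, Meis2 and Barhl2) and 2 in the hypothalamus (Otx2 and Nr4a2), against 0.199% and 0.342% of all genes. The list's median was -0.15, or 0.02 over 34 factors with bounds. It was -0.93 without hypothalamus replicate 2, -0.78 without midbrain replicate 3, 0.17 without midbrain replicate 1, 0.07 without replicate 1 of both regions and -1.3 when 5 CPM or more in 3 libraries was required. Another 32 factors did not pass, among them En1 at -3.53 (adjusted p = 0.0769), Meis1 at -2 (adjusted p = 0.094) and Irx1 at -4.72 (adjusted p = 0.153).

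Meis2 (chr2:115863064-116065839), a TALE homeobox factor, had the smallest adjusted p of the 36 genes with the larger midbrain enrichment. Its level was 3.48, 6.67 and 8.69 CPM in the hypothalamus IP and 105, 60.7 and 154 CPM in the hypothalamus input. Its midbrain levels were 202, 308 and 93.5 CPM in the IP and 127, 190 and 95.7 CPM in the input. Inputs of the regions overlapped, and the IPs did not. The difference was -4.51 (SE 0.37, adjusted p = 0.000136), and it passed in each leave-out and without the pairing. Meis2 is also on the list of GABAergic markers. Of that list 16 of 23 were lower in the hypothalamus IP than in the input and 17 of 23 in the midbrain, against 22.1% and 21.5% of all genes. The summed level of that list was between 314 and 454 CPM in the hypothalamus IPs, 1980 and 2570 in their inputs, 295 and 649 in the midbrain IPs, and 1500 and 2090 in theirs. In each direction 1 gene of the list was called (Six3 and Meis2), against 0.342% and 0.199% of all genes. The list's median difference was 0.55, and it was -0.05 without hypothalamus replicate 2, 0.33 without midbrain replicate 3 and 1.07 without hypothalamus replicate 3. The part of such neurons in the result was not tested.

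En2 (chr5:28165694-28172166), the engrailed homeobox factor of the midbrain and hindbrain, had no count in any hypothalamus IP, while its hypothalamus inputs held 0.863, 0.465 and 1.51 CPM. Midbrain levels were 4.42, 7.76 and 1.54 CPM in the IP and 4.92, 8.15 and 3.05 CPM in the input, so the IP lay near its input in replicates 1 and 2 and further below it in replicate 3. The difference was -3.49 or further below 0 with the hypothalamus IP at the floor (adjusted p = 0.0147 in the fit), and the call ended without midbrain replicate 2 (adjusted p = 0.0952). Pou4f2 (chr8:78433010-78436645), a POU factor of retinal ganglion cells and of the superior colliculus, was enriched in the midbrain, with 60.8, 62.4 and 25.9 CPM in the IP and 15.4, 14.5 and 4.54 CPM in the input. In the hypothalamus it was nearly absent from both fractions, with no count in the IPs and 24 counts over the inputs. Its bound was -2.14 (adjusted p = 0.00439 in the fit), and without hypothalamus replicate 2, which held most of those counts at 0.394 CPM, the adjusted p was 0.449.

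The BarH-like homeobox genes Barhl1 and Barhl2, which mark excitatory neurons of several brain regions, were both higher in the midbrain IP. Barhl2 (chr5:106452523-106458166) was at 79.2, 73 and 48.1 CPM in the midbrain IP and 17.1, 28 and 13.3 CPM in its input. In the hypothalamus the IP and the input were alike, at 11.5, 13.9 and 16.4 CPM and 10.4, 15.4 and 15.7 CPM. The difference was -1.8 (SE 0.26, adjusted p = 0.00986), or 0.0589 without hypothalamus replicate 2. Barhl1 (chr2:28907679-28916668) was at 18.2, 22.3 and 8.36 CPM in the midbrain IP and 2.67, 9.37 and 2.89 CPM in its input, against 0.403, 0.771 and 0.225 CPM and 0.863, 1.36 and 0.886 CPM in the hypothalamus. Its difference was -3.09 (SE 0.55, adjusted p = 0.031), and it did not pass in 5 of the 6 leave-outs (adjusted p from 0.0514 without midbrain replicate 3 to 0.102 without midbrain replicate 2).

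Otx2 and Nr4a2, on the midbrain list, had the larger enrichment in the hypothalamus. Otx2 (chr14:48657677-48673819), a homeobox factor of the midbrain and of the choroid plexus, was at 2.49, 2.92 and 2.65 CPM in the midbrain IP and 37.4, 47.3 and 35 CPM in the midbrain input. Hypothalamic levels were 1.51, 3.32 and 5.51 CPM in the IP and 7.18, 4.08 and 7.95 CPM in the input. The IPs of the regions overlapped, and the inputs did not. Its difference was 2.9 (SE 0.46, adjusted p = 0.0191), and it was lost without hypothalamus replicate 2 (adjusted p = 0.072) and without midbrain replicate 2 (0.0877). Of 17 ependymal, tanycyte and choroid plexus genes, Otx2 was the only 1 called, against 0.342% of all genes in that direction. The summed level of the list was 132, 136 and 1057 CPM in the midbrain inputs. Ttr was at 7.21, 0.788 and 888 CPM in those inputs. The part of choroid plexus RNA in the Otx2 result was not tested. Nr4a2 (chr2:57106830-57124003), the dopamine neuron factor also known as Nurr1, was at 65.1, 58.3 and 41.6 CPM in the hypothalamus IP and 10.5, 16.5 and 13 CPM in the midbrain IP. With inputs of 39.9, 48.3 and 39.8 CPM and 24.5, 31.8 and 43.9 CPM, its difference was 1.65 (SE 0.27, adjusted p = 0.0195), or 0.072 without hypothalamus replicate 2 and 0.0511 without midbrain replicate 3. Nr4a2 lies outside the rule by which genes were named and was chosen after its values were seen.

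The promoters of the called genes were searched for TGACAG, the core bound by MEIS-type homeodomain factors such as Meis2, on both strands in the 250 bases before the gene's start. The sequences and starts are from RefSeq, build GRCm38.p6, and 40 of the 62 and 24 of the 36 genes had an entry. The core occurred in 10 of the 40, or 25%, and in 1 of the 24, or 4.17%. Of the 12227 tested genes with an entry 14.2% had it, as did 16% of all 27025 promoters given. TAATTA, a homeodomain core, was in 2.5% and 8.33% of the promoters against 2.54% of tested genes, and CANNTG, the E-box, in 45% and 70.8% against 58.5%. A match is only a description of letters in this window. Capitals mark the core, as TGACAG or as its reverse complement CTGTCA, in windows of factors described above and of genes described below, 5′ to 3′ on the gene's strand. They lie at chr11:84525760-84525784 (minus strand) for Lhx1, chr17:85620678-85620717 (plus) for Six3, chr6:71262474-71262513 (minus) for Smyd1, chr5:116422918-116422957 (minus) for Hspb8 and chr4:123183387-123183426 (plus) for Hpcal4, the only 1 of these with the larger midbrain enrichment.
Lhx1: taCTGTCAatccttgatgccgaaac
Six3: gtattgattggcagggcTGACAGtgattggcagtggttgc
Smyd1: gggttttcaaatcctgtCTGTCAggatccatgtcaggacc
Hspb8: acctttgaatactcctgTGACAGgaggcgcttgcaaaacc
Hpcal4: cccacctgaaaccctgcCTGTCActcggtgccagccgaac
The site began 248 bases before the start of Lhx1, 139 before Six3, 215 before Smyd1, 76 before Hspb8 and 100 before Hpcal4. These are distances to RefSeq's start of 1 transcript, which for Six3, Smyd1 and Hpcal4 lies inside the GENCODE gene, so other transcripts of these begin further upstream.

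Neuropeptide genes were called in both directions. Of 43 tested, 6 had the larger enrichment in the hypothalamus (Gnrh1, Npy, Cartpt, Hcrt, Pmch and Pnoc) and 6 in the midbrain (Gal, Sst, Grp, Tac1, Nts and Cbln4), against 0.342% and 0.199% of all genes, and 31 did not pass. The list's median was -0.43, also with bounds over 37 genes. It was -0.85 without midbrain replicate 3, -0.18 without midbrain replicate 2, -0.28 without hypothalamus replicate 1, -0.29 without replicate 1 of both regions and 0 when 5 CPM or more in 3 libraries was required. Hcrt, Pmch and Pnoc, and Tac1, Nts and Cbln4, lie outside the rule by which genes were named and were chosen after their values were seen.

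Gnrh1 (chr14:67745181-67749439), which encodes the peptide that starts the reproductive hormone cascade, had the largest fitted difference of all called genes. It was at 25.2, 21.5 and 14.5 CPM in the hypothalamus IP and 4.19, 2.08 and 1.91 CPM in the input. Midbrain IPs held no count, and midbrain inputs held 44 counts, or 0.346, 0.187 and 0.402 CPM. With the midbrain IP at the floor the difference was at least 5.23 on the log2 scale (adjusted p = 0.00113 in the fit), and it passed in every alternative. Cartpt (chr13:99898489-99901091), the gene of the satiety peptide CART, was at 471, 173 and 102 CPM in the hypothalamus IP and 102, 44.3 and 44 CPM in the input. In the midbrain the IP was the lower fraction, at 44.5, 22.9 and 17.5 CPM against 124, 69.4 and 38.6 CPM. Inputs overlapped between the regions, and the difference was 3.21 (SE 0.25, adjusted p = 0.000125), held in each leave-out. Npy (chr6:49822710-49829507), the gene of the appetite peptide neuropeptide Y, was at 32.2, 19.9 and 9.24 CPM in the hypothalamus IP and 9.26, 11.1 and 7.89 CPM in the input. With 0.808, 0.749 and 0.381 CPM in the midbrain IP and 3.77, 6.76 and 3.24 CPM in its input, the difference was 3.77 (SE 0.48, adjusted p = 0.00439), and it too passed in each leave-out.

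Hcrt and Pmch, the genes of orexin and of melanin-concentrating hormone, mark neurons of the lateral hypothalamus and were far higher in the hypothalamic libraries than in the midbrain ones. Pmch (chr10:88091072-88092375) was at 278, 162 and 103 CPM in the hypothalamus IP and 215, 81.9 and 65.6 CPM in the input, against 0.191, 0.557 and 1.84 CPM and 1.15, 1.31 and 4.99 CPM in the midbrain. The difference was 2.26 (SE 0.29, adjusted p = 0.00439) and held in each leave-out, but not with a block by number (adjusted p = 0.624), with limma-voom (0.177) or without the pairing (0.797). Parpbp overlaps Pmch on the opposite strand. Hcrt (chr11:100761069-100762931) was depleted in both regions, with 106, 57.7 and 42.9 CPM in the hypothalamus IP and 182, 101 and 105 CPM in the input. The midbrain held 10 counts over its IPs and 124 over its inputs. Its difference of 2.69 (SE 0.44, adjusted p = 0.0204) therefore compared a hypothalamic ratio with one of few counts, and it was lost without hypothalamus replicate 2 (adjusted p = 0.0715), midbrain replicate 2 (0.104) or midbrain replicate 3 (0.147). Pnoc, the nociceptin precursor gene, had a difference of 2.01 (SE 0.35, adjusted p = 0.0269), lost in 4 of the 6 leave-outs (adjusted p between 0.0731 without hypothalamus replicate 1 and 0.112 without hypothalamus replicate 2, with midbrain replicates 1 and 2 between them).

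**Figure D3:**
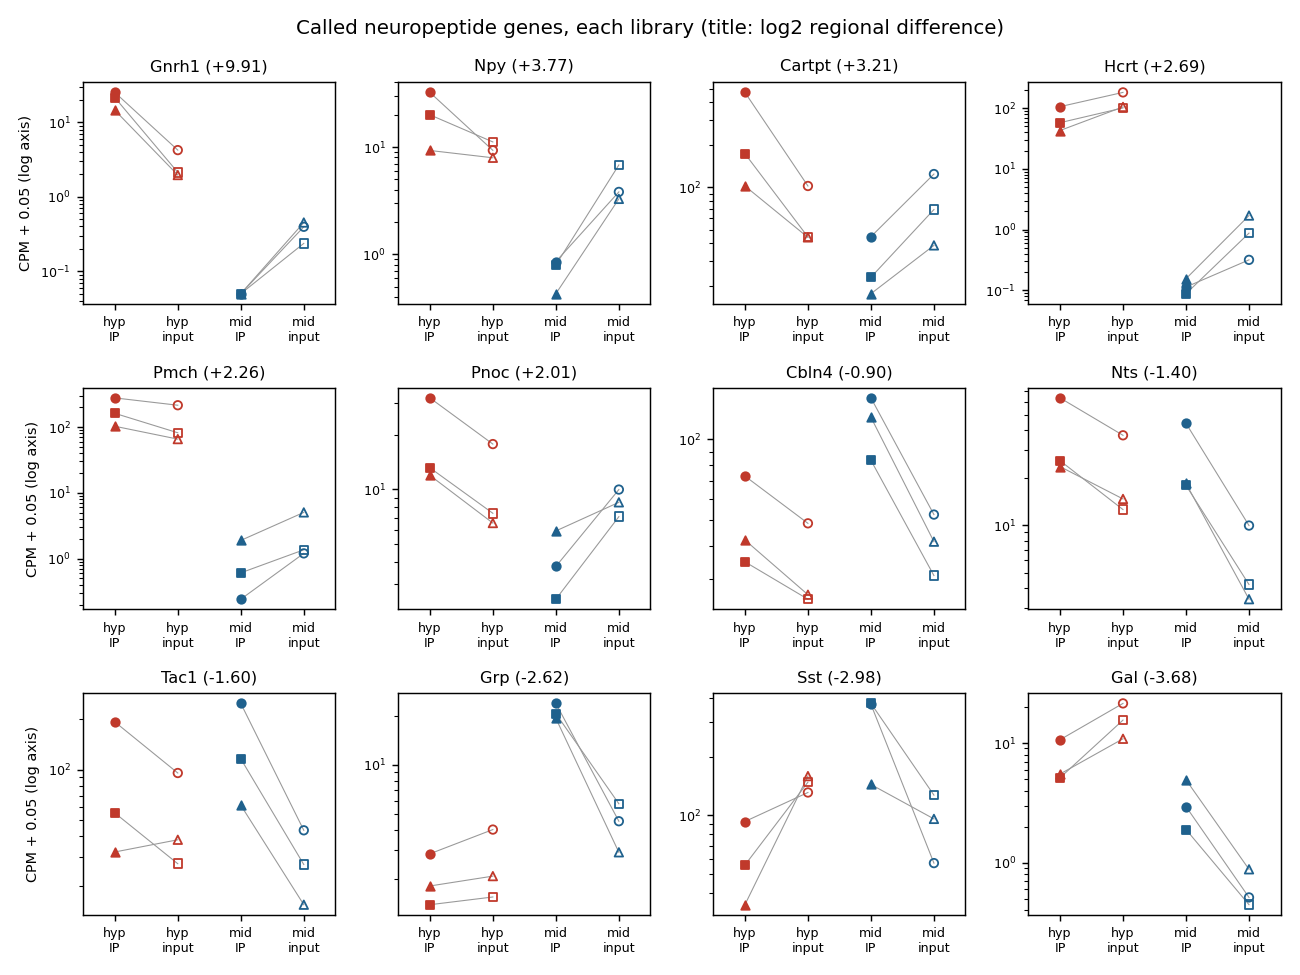
Each panel is 1 of the 12 called neuropeptide genes, with the log2 regional difference in its title; the vertical axis is CPM plus 0.05 on a log scale, filled marks are IP, open marks are input, the shape is the replicate number and grey lines join the IP and input of 1 dissection. Lines of the hypothalamus and of the midbrain slope in opposite directions in panels such as those of Cartpt and Gal. In both regions the IP lies below the input for Hcrt and above it for Nts and Cbln4, with unequal steepness.

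Gal and Sst were higher than input in the midbrain IP and lower than input in the hypothalamus IP. Gal (chr19:3409915-3414544), the galanin gene, was the higher in the hypothalamus, with 10.6, 5.07 and 5.45 CPM in the IP and 21.4, 15.5 and 10.8 CPM in the input. It was scarce in the midbrain, with 2.89, 1.84 and 4.87 CPM in the IP and 0.461, 0.394 and 0.828 CPM in the input. The IPs of the regions nearly met, the inputs were far apart, and the difference was -3.68 (SE 0.41, adjusted p = 0.00169), held in each leave-out. Sst (chr16:23889573-23890958), the somatostatin gene, was at 93, 55.6 and 34.8 CPM in the hypothalamus IP and 131, 148 and 159 CPM in the input, against 371, 375 and 144 CPM and 56.9, 127 and 95.9 CPM in the midbrain. Its difference of -2.98 (SE 0.5, adjusted p = 0.0241) was lost without any hypothalamic dissection (adjusted p = 0.105, 0.09 and 0.174 for replicates 1, 2 and 3) and without midbrain replicate 1 (0.17) or 2 (0.1), and also with no filter on low counts (0.42).

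Grp (gastrin-releasing peptide) was at 23.7, 20.5 and 19.2 CPM in the midbrain IP and 4.46, 5.72 and 2.86 CPM in the midbrain input. In the hypothalamus its IPs, at 2.8, 1.34 and 1.76 CPM, lay close to their inputs at 3.96, 1.5 and 2.03 CPM. The difference was -2.62 (SE 0.39, adjusted p = 0.0112) and held in each leave-out of 1 dissection, but not without replicate 1 of both regions (0.0638). Nts (neurotensin) and Tac1 (substance P) were enriched in both regions and more so in the midbrain. Nts had enrichments of 0.83 in the hypothalamus and 2.23 in the midbrain, and a difference of -1.4 (SE 0.24, adjusted p = 0.0259). For Tac1 they were 0.6 and 2.21, and the difference was -1.6 (SE 0.31, adjusted p = 0.0493). Its hypothalamic dissections stood at 1.02, 1.01 and -0.24, so the IP of replicate 3 lay below its input. Cbln4, a secreted synaptic organiser, was also enriched in both, by 0.58 and 1.48, with a difference of -0.9 (SE 0.17, adjusted p = 0.0493). The calls of Nts and Cbln4 were lost in all 6 leave-outs (adjusted p from 0.0534 to 0.0851 and from 0.0742 to 0.217), and that of Tac1 without hypothalamus replicate 2 (0.072) or any midbrain dissection (0.0709 to 0.154).

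Of 45 receptor genes for peptides and hormones 0 passed in edgeR and 0 in limma-voom. In edgeR 11 had an unadjusted p under 0.05, against 1650 of all 18128 genes, and DESeq2 called 3, against 456 of all genes. Values were below 0 for 36 of them, against 51.9% of all genes. The list's median was -0.45, or -0.29 without midbrain replicate 2. The list's median enrichment was -0.44, -0.13 and -0.01 in the hypothalamic dissections and 0.4, 0.39 and -0.15 in the midbrain ones, which overlapped.

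Smyd1 and Serping1 were also among the leading genes with the larger hypothalamic enrichment. Smyd1 (chr6:71213940-71322233), a methyltransferase gene known from muscle, had the smallest SE of all leading genes. It was at 86.3, 106 and 59.7 CPM in the hypothalamus IP and 18, 22.2 and 14.1 CPM in the input. Midbrain levels were the opposite, at 4.44, 5.03 and 2.9 CPM in the IP and 23.5, 28.3 and 20 CPM in the input. The inputs were alike across regions, and the difference was 4.75 (SE 0.22, adjusted p = 2.07e-06). Several annotated genes overlap it on the opposite strand, Krcc1 among them. Serping1, the C1 inhibitor gene, was at 7.55, 6.65 and 5.15 CPM in the hypothalamus IP and 1.21, 0.96 and 0.614 CPM in the midbrain IP, with inputs between 2.07 and 5.4 CPM. Its difference of 3.09 (SE 0.52, adjusted p = 0.0244) was lost in all 6 leave-outs (adjusted p from 0.0518 to 0.0916). Outside the rule for naming, and chosen after their values were seen, the chaperone genes Bag3 and Hspb8, whose products act together in protein quality control, differed by 2.91 (SE 0.3, adjusted p = 0.00113) and 2.51 (SE 0.37, adjusted p = 0.0112). Bag3 was at 30.2, 36.7 and 21.9 CPM in the hypothalamus IP and 4, 3.19 and 3.53 CPM in the midbrain IP, and Hspb8 at 36.8, 30.9 and 21.3 CPM and 5.67, 3.51 and 2.35 CPM. Bag3 held in each leave-out, while Hspb8 was lost without hypothalamus replicate 2 (adjusted p = 0.0538) or midbrain replicate 2 (0.0516).

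Genes of the next groups were also chosen after their values were seen. A group of 4 genes was enriched in both regions and more in the hypothalamus: Rprm, Ctxn3, Cpne9 and Tmem196. Rprm (chr2:54084093-54085552), a p53 target linked to cell-cycle arrest, was at 325, 350 and 215 CPM in the hypothalamus IP and 23.7, 30.8 and 25.4 CPM in the input. Midbrain IPs held 22.5, 28.8 and 40.7 CPM and midbrain inputs 8.36, 9.58 and 11.5 CPM. The difference was 1.84 (SE 0.21, adjusted p = 0.0022). Ctxn3, which encodes a cortexin, had enrichments of 3.11 and 0.65 and a difference of 2.46 (SE 0.24, adjusted p = 0.000658), and Cpne9, a copine gene, 2.49 and 0.64 with a difference of 1.86 (SE 0.2, adjusted p = 0.00144). These 3 held in each leave-out. Dgkb, a diacylglycerol kinase gene and among the more abundant of the 62, was at 696, 732 and 498 CPM in the hypothalamus IP against 227, 186 and 175 CPM in the input. Midbrain levels were 86.9, 120 and 65.2 CPM against 112, 93.6 and 90 CPM, so the fractions overlapped there, with a difference of 1.86 (SE 0.22, adjusted p = 0.00289).

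Among the genes with the larger midbrain enrichment were 6 that were depleted in the IP of both regions, less so in the midbrain: Abca9, Cp, Ppp1r1b, S100b, Dio2 and Zfp36l1. S100b, a calcium-binding protein gene of astrocytes, was at 6.59, 6.57 and 2.9 CPM in the hypothalamus IP and 92.1, 72 and 64.3 CPM in the input. Midbrain levels were 31.8, 33.6 and 20.7 CPM in the IP and 169, 142 and 144 CPM in the input. No library of one group overlapped another, and the difference was -1.47 (SE 0.27, adjusted p = 0.0392). Dio2, the deiodinase that activates thyroid hormone in glia, differed by -1.71 (SE 0.29, adjusted p = 0.0241) and Cp (ceruloplasmin) by -4.3 (SE 0.81, adjusted p = 0.0434). Abca9, a lipid transporter gene, had 3 counts in the hypothalamus IPs and 541 in the inputs, a ratio of 0.00539 with a 95% counting interval from 0.00111 to 0.0158, and a difference of -5.29 (SE 0.88, adjusted p = 0.0238). Ppp1r1b, the gene of a dopamine-regulated phosphatase inhibitor of striatal neurons, differed by -2.75 (SE 0.5, adjusted p = 0.0333). All 6 calls were lost without hypothalamus replicate 2 (adjusted p of 0.0517 for S100b, 0.0906 for Dio2, 0.187 for Cp, 0.072 for Abca9, 0.0557 for Ppp1r1b and 0.167 for Zfp36l1). The calls of Cp and Zfp36l1 were lost in all 6 leave-outs (adjusted p from 0.0557 and from 0.0526). Those of S100b were lost also without hypothalamus replicate 3 (0.0581) or midbrain replicate 1 or 2 (0.0754 and 0.169), of Dio2 without midbrain replicate 2 or 3 (0.0979 and 0.0825), and of Abca9 without hypothalamus replicate 1 (0.0522) or midbrain replicate 2 or 3 (0.0941 and 0.0514). For Ppp1r1b they were lost without every dissection other than midbrain replicate 3 (up to 0.146).

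Markers of glia and vessels were measured beside these genes. Of 18 astrocyte markers, edgeR and limma-voom called 0 for the regional difference. DESeq2 called 2, against 456 of all 18128 genes, and 5 had an unadjusted p under 0.05 in edgeR, against 1650 of all genes. All 18 were lower in the IP than in the input in each region, against 22.1% and 21.5% of all genes. Their median difference was -0.82, with 14 of 18 below 0, against 51.9% of all genes. The list's median enrichment was -4.31, -4.14 and -3.89 in the hypothalamic dissections and -3.85, -2.97 and -3.94 in the midbrain ones, which overlapped. The summed level was between 317 and 436 CPM in the hypothalamus IPs and between 470 and 512 CPM in the midbrain IPs, against 1660 to 3120 and 2140 to 3520 CPM in the inputs. Oligodendrocyte markers, 17 tested, had a median of -0.44 and microglial markers, 17 tested, one of -0.99 (-0.86 with bounds). The former was -0.22 without midbrain replicate 2 and -0.74 without hypothalamus replicate 1, and the latter -0.53 and -0.28. Both edgeR and limma-voom called 0 of either list and DESeq2 called 2 and 1, with 8 and 2 at an unadjusted p under 0.05. The counts over all genes are those given above. Dissection medians of the regions overlapped in both lists. For 19 endothelial and mural genes the median was -0.82, but 0.21 with bounds, since 3 had no count in a group, Cldn5 in the hypothalamus IPs among them, and leave-outs moved it between -1.25 (without hypothalamus replicate 2) and -0.32 (without midbrain replicate 2). Genes with a mean enrichment below -4, of which 1624 were tested, had a median difference of -0.25, with 55.6% below 0 against 51.9% of all genes. The part of glial RNA in the 6 genes above was not tested.

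Receptor genes for fast transmitters mostly had values below 0, with few passing singly. Of 18 ionotropic glutamate receptor subunits, 17 had a difference below 0, against 51.9% of all genes, and the list's median was -0.57. The list's median enrichment was -0.45, -0.78 and -0.93 in the hypothalamic dissections and 0.25, 0.14 and -0.02 in the midbrain ones, without overlap. Over the 16 alternatives the median stayed between -0.65 and -0.5. The kainate receptor subunits Grik3 and Grik1 passed, against 0.199% of all genes in that direction. Grik3 (chr4:125490700-125714173) was at 87.5, 19 and 27.4 CPM in the hypothalamus IP and 137, 59.8 and 59 CPM in the input, against 166, 74.3 and 48.9 CPM and 68.9, 49.6 and 42.6 CPM in the midbrain, a difference of -1.82 (SE 0.3, adjusted p = 0.0238). Grik1 (chr16:87895900-88290265) was at 9.95, 4.11 and 4.21 CPM in the hypothalamus IP and 23, 15.8 and 15 CPM in the input, while the midbrain fractions overlapped at 15.6, 16.3 and 15.5 CPM and 20.2, 14.4 and 11.1 CPM. Its difference was -1.75 (SE 0.33, adjusted p = 0.0458). Without hypothalamus replicate 2 or midbrain replicate 2 neither passed (adjusted p of 0.0862 and 0.0813 for Grik3, 0.179 and 0.173 for Grik1), and Grik1 also failed without replicate 3 of either region (0.0954 and 0.135).

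Of 18 GABA-A and glycine receptor subunits 17 had a value below 0, against 51.9% of all genes. The list's median was -0.2 (-0.31 without hypothalamus replicate 3), and 1 passed, against 0.199% of all genes in that direction. This was Gabrq, the theta subunit, with enrichments of -0.73 in the hypothalamus and 0.77 in the midbrain and a difference of -1.5 (SE 0.25, adjusted p = 0.0238). It was lost without hypothalamus replicate 2 (adjusted p = 0.0998) or 3 (0.0558) or midbrain replicate 2 (0.0901). Voltage-gated channel genes, 46 tested, had 1 call in each direction, against 0.342% and 0.199% of all genes. The list's median was -0.32, or -0.18 without midbrain replicate 1 and -0.21 without hypothalamus replicate 3. Kcnd3, an A-type potassium channel, differed by -1.04 (SE 0.19, adjusted p = 0.0368) and the auxiliary subunit gene Kcnab3 by 1.69 (SE 0.24, adjusted p = 0.00929). Kcnab3 was at 68.8, 56.3 and 45 CPM in the hypothalamus IP and 18.2, 19.3 and 19 CPM in the input, while the midbrain held 89.3, 81.6 and 62.6 CPM and 73, 101 and 79 CPM. Its IPs overlapped between regions and its inputs did not. Kcnd3 was lost without hypothalamus replicate 2 (0.159) or any midbrain dissection (0.0585, 0.105 and 0.126), and Kcnab3 without replicate 2 of either region (0.0517 and 0.0524), all adjusted p. Kcnt2, a sodium-activated potassium channel gene, differed by -2.12 (SE 0.32, adjusted p = 0.0136, or 0.063 without hypothalamus replicate 2), and the zinc-finger gene Zfp831 by -2.37 (SE 0.36, adjusted p = 0.0141, or 0.0673 without hypothalamus replicate 2 and 0.0707 without midbrain replicate 2).

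Of 17 immediate early genes, 15 had a value below 0, against 51.9% of all genes. Egr1 passed, against 0.199% of all genes in that direction. The list's median was -0.34, or -0.58 without hypothalamus replicate 2, -0.59 without midbrain replicate 2, -0.23 without midbrain replicate 1 and -0.24 without midbrain replicate 3. Egr1, a transcription factor induced by neuronal firing, was at 178, 178 and 278 CPM in the hypothalamus IP and 221, 224 and 344 CPM in the input. Midbrain levels were 314, 290 and 306 CPM in the IP and 179, 173 and 168 CPM in the input. Every hypothalamic IP lay below its input and every midbrain IP above it, with a difference of -1.12 (SE 0.14, adjusted p = 0.00367) that held in each leave-out. The list's median enrichment was 0.17, -0.15 and -0.24 in the hypothalamic dissections and 0.82, 0.47 and 0.44 in the midbrain ones, without overlap. Oxidative phosphorylation genes had a median of the opposite sign. Of 28 tested 3 were below 0, against 51.9% of all genes. In edgeR, DESeq2 and limma-voom 0 passed, and 2 had an unadjusted p under 0.05 in edgeR, against 1650 of all 18128 genes. The list's median was 0.25 (0.13 without midbrain replicate 2). Dissection medians were 1.24, 1.18 and 1.12 in the hypothalamus against 0.99, 0.78 and 0.93 in the midbrain.

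Axon guidance and adhesion genes were called in both directions, 2 and 2 of 59, against 0.342% and 0.199% of all genes. The median was -0.08, between -0.21 without midbrain replicate 2 and 0 without hypothalamus replicate 3. Netrin receptor genes were on opposite sides, Unc5b at 1.81 (SE 0.33, adjusted p = 0.0336) and Unc5d at -1.13 (SE 0.2, adjusted p = 0.031). The ephrin gene Efnb3 differed by 1.43 (SE 0.2, adjusted p = 0.00938) and the cadherin gene Cdh4 by -1.7 (SE 0.25, adjusted p = 0.0108). Cdh4 held in each leave-out, and all the others were lost without hypothalamus replicate 2 (adjusted p of 0.112 for Unc5b, 0.149 for Unc5d and 0.0538 for Efnb3). Unc5b was also lost without hypothalamus replicate 1 (0.0607) or midbrain replicate 2 or 3 (0.146 and 0.107), and Unc5d without hypothalamus replicate 3 (0.0771) or midbrain replicate 1 or 2 (0.0753 and 0.151). Hpcal4, a neuronal calcium sensor gene, was abundant and had the smallest difference of the 36 genes, -0.87 (SE 0.15, adjusted p = 0.0244). It was at 715, 787 and 820 CPM in the hypothalamus IP and 691, 583 and 668 CPM in the input, against 493, 549 and 594 CPM and 222, 235 and 293 CPM in the midbrain, and it was lost without replicate 2 of either region (adjusted p = 0.0715 and 0.12) or midbrain replicate 3 (0.061).

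**Figure D4:**
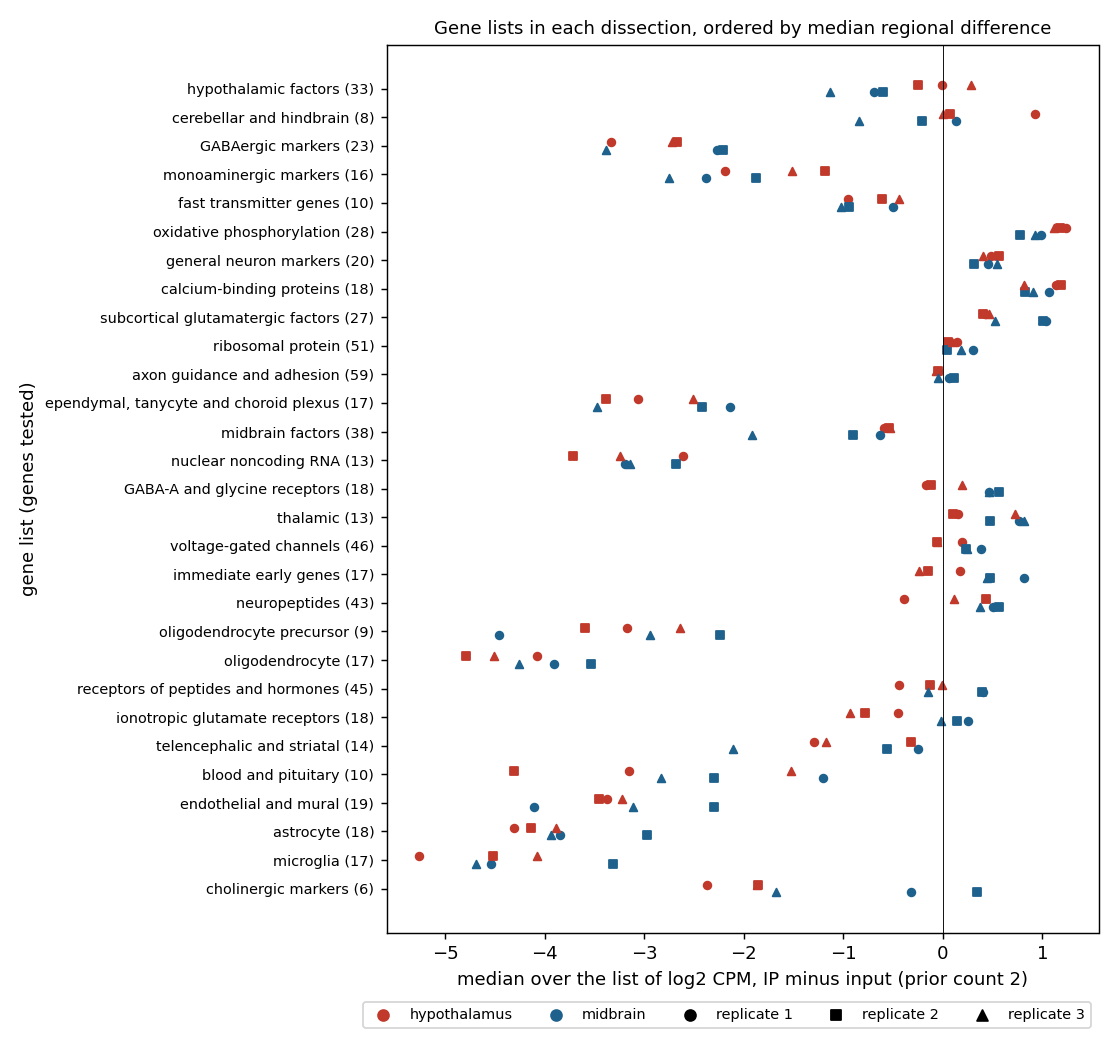
For each gene list, with its number of tested genes, the horizontal axis gives the median over the list of log2 CPM of the IP minus that of the input in each dissection (prior count 2); red is hypothalamus, blue is midbrain, the shape is the replicate number, and lists are ordered by their median regional difference. Glial and vascular lists lie at the left in both regions. Red and blue are apart for several lists, among them ionotropic glutamate receptors, GABA-A and glycine receptors, voltage-gated channels, hypothalamic factors, immediate early genes and oxidative phosphorylation. They overlap for others, such as receptors of peptides and hormones.

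The called genes were sorted by what the IP did in each region. They were selected for their difference, which by itself favours opposite directions in the regions, so the counts only describe these genes. Over all genes tested 83.1% had the same sign in both regions, and shares of the classes over all genes were not counted. Of the 62 with the larger hypothalamic enrichment, 21 were higher in the hypothalamus IP but lower in that of the midbrain, as Nkx2-1, Lhx1, Foxb1 and Cartpt were. Another 17 were lower in the midbrain IP without a call in the hypothalamus, 11 were higher in the hypothalamus IP without a call in the midbrain, 9 were lower in both and 4 higher in both. Of the 36 with the larger midbrain enrichment, 11 were lower in the hypothalamus IP and higher in the midbrain IP, as Gal, Sst and Egr1 were. A further 11 were lower in the hypothalamus without a call in the midbrain, 6 were lower in both, 5 were higher in the midbrain only and 3 higher in both.

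A regional difference in enrichment can lie in the IPs, in the inputs or in both, and the fractions were therefore compared between regions, in a fit of 4 group means that left out the replicate number. Between the IPs 4.26% of genes passed, 2.05% higher and 2.21% lower in the hypothalamus, and between the inputs 1.61%, 1.00% higher and 0.601% lower. Of the 62 genes, 38 were higher in the hypothalamus IP with no call between the inputs, and 8 were higher in both fractions, among them Gnrh1, Nkx2-1, Hcrt and Pmch. Otx2 and Kcnab3 had no call between IPs and a lower hypothalamic input, Arhgef3 was higher in the IP and lower in the input, and 13 had a call in neither fraction. Of the 36 genes, 16 were lower in the hypothalamus IP with no call between the inputs, as Meis2, Grp and Sst were. Gal, Dlk1, Arhgap6 and Hpcal4 were higher in the hypothalamus input alone. Gal stood out here, with 1.14 between IPs (adjusted p = 0.187) and 4.83 between inputs (adjusted p = 0.00071). Dio2 and Pou4f2 were lower in both fractions, Zfp831 was lower in the IP and higher in the input, and 13 had a call in neither.

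With the replicate number as a block, an alternative added after seeing the data, more genes passed, 11.2% between the IPs (2024 in place of 773, with 772 in both) and 6.05% between the inputs (1097 in place of 291, with 290 in both). Of the 98 called genes 85 then had a call between the IPs in place of 66, and 38 between the inputs in place of 18. Gnrh1, Nkx2-1, Hcrt and Pmch were again higher in both hypothalamic fractions, and Lhx1, Lhx5, Smyd1 and Cartpt in the IP alone. Foxb1, Sall3, Six3 and Tbx3 were now also higher in the hypothalamus input, and Hpcal4 in the hypothalamus IP. Gal, Dlk1 and Otx2 again differed between the inputs alone, and of the 98 genes Tac1 and Unc5d had a call in neither fraction.

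**Figure D5:**
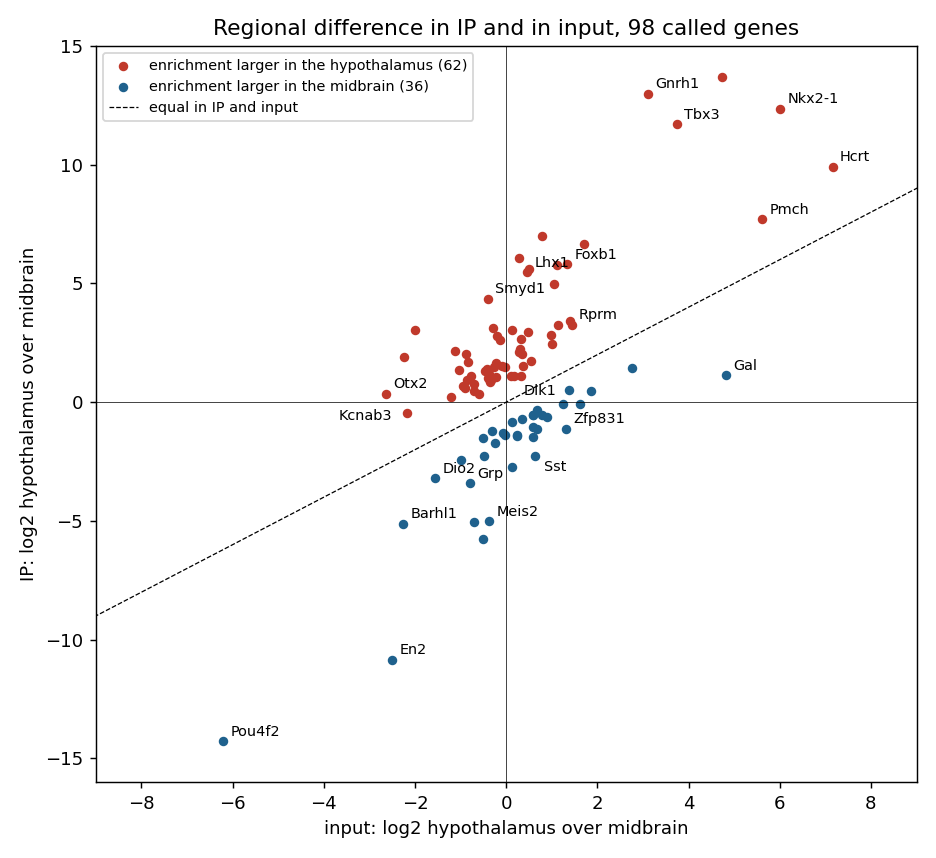
Each point is 1 of the 98 called genes, with log2 hypothalamus over midbrain between the inputs on the horizontal axis and between the IPs on the vertical axis, from the fit of 4 group means; red genes had the larger enrichment in the hypothalamus, blue genes in the midbrain, and the dashed line marks equal difference in both fractions. Most points lie near 0 between inputs, while Gnrh1, Nkx2-1, Hcrt and Pmch lie far to the upper right, Pou4f2 to the lower left and Gal at 4.83 between inputs with 1.14 between IPs.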

How the data were processed

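Ribosome-bound RNA (IP) and total RNA (input) were sequenced from hypothalamus and midbrain, 12 libraries in 4 groups of 3. The values are raw counts of reads per gene that the authors deposited, made with STAR 2.0.0e and HTSeq on mm10, per the submitters' processing notes. The annotation, the counting mode and the strand setting are not given in the sources used here. The 5 HTSeq summary rows and a row without a gene name, which held between 0 and 7 counts a library, were left out.

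From these counts, genes were filtered with filterByExpr, scaled by TMM and fitted with edgeR 4.0.16 (robust quasi-likelihood, R 4.3.3) with a term for each of 6 dissections and an IP term for each region, leaving 4 residual degrees of freedom. Threshold was an adjusted p of 0.05 (Benjamini-Hochberg over 18128 of 32531 genes). Region was compared within IP and within input in a fit of 4 group means, with the replicate number as a block as an added alternative. The steps were run on counts simulated from the same fitted model with known changes added, which tests the steps and not the model. Differences per dissection used a prior count of 2, and bounds set a group without counts at 3 counts per library. Libraries held between 41909019 and 55148109 counts.

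The labels do not say that a number marks a shared tissue, and this was checked on 11953 genes. Deviations from the group means correlated between IP and input of the same number with r of 0.6, 0.46 and 0.34 in the hypothalamus and 0.44, 0.23 and 0.37 in the midbrain, against -0.46 to 0.14 between other numbers. Same-numbered libraries of the regions also correlated (IP 0.6, 0.29 and 0.39, input 0.73, 0.35 and 0.4). The check therefore cannot tell a shared tissue from another factor shared by number. Taking deviations from means of 3 libraries also lowers the correlations between other numbers.

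Genes were named by a rule: up to 15 per direction with the largest difference among those passing, with 5 CPM or more on average in the highest group and differences not overlapping between regions, up to 5 passing genes per list, and Slc17a6 and Rpl10a. Symbols of predicted genes were passed over. The members and lists were chosen with earlier results of these data known. Gene positions are from GENCODE mouse release 21, which held 15675, or 86.5%, of the tested symbols. Alternatives used DESeq2 1.42.0 and limma 3.58.1 (voom), other scalings and filters, other blocks and each dissection left out.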

Additional observations from a re-analysis of the deposited data

Results flagged for a closer look

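IP enrichment differed between the regions, by the test of the difference itself, in 62 genes in favour of the hypothalamus and 36 in favour of the midbrain, and 42 of these were named. Their fitted log2 differences in favour of the hypothalamus were Gnrh1 (9.91), Tbx3 (7.71), Nkx2-1 (6.28), Lhx1os (5.76), Lhx5 (5.12), Lhx1 (5.06), Emx2 (4.99), Sall3 (4.93), Smyd1 (4.75), Emx2os (4.56), Foxb1 (4.47), Npy (3.77), Cartpt (3.21), Otx1 (3.15), Serping1 (3.09), Otx2 (2.9), Six3 (2.22), Kcnab3 (1.69), Unc5b (1.81) and Efnb3 (1.43). Those in favour of the midbrain were En2 (-8.16), Pou4f2 (-8.1), Abca9 (-5.29), Meis2 (-4.51), Cp (-4.3), Gal (-3.68), Barhl1 (-3.09), Sst (-2.98), Ppp1r1b (-2.75), Grp (-2.62), Zfp831 (-2.37), Kcnt2 (-2.12), Grik3 (-1.82), Barhl2 (-1.8), Grik1 (-1.75), Gabrq (-1.5), Kcnd3 (-1.04), S100b (-1.47), Hpcal4 (-0.87), Cdh4 (-1.7), Unc5d (-1.13) and Egr1 (-1.12). For Gnrh1, Tbx3, En2 and Pou4f2, which had no count in 1 group, the fitted value depends on the prior count and is no bound.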

How the results depend on the processing

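All 98 called genes kept the direction of their difference in every alternative in which they were tested. Their paired differences already lay apart between the regions in these same libraries. A reversed direction was therefore unlikely from the start, and the kept directions are no separate support. Without the replicate block, that is, without pairing IP and input, 11 and 3 genes had the larger enrichment in the hypothalamus and in the midbrain, all 14 among the 98. DESeq2's Wald test gave 216 and 240, and no filter on low counts 96 and 92. Leaving out each dissection in turn gave 21 to 79 and 8 to 60, both lowest without hypothalamus replicate 2 and highest without hypothalamus replicate 3, and 28 of the 98 genes passed in all 6 leave-outs. The other settings stayed within 1.5 times, with 58 and 47 for a block by number over both regions, 63 and 36 for limma-voom, 75 and 52 at 5 CPM or more in 3 libraries and 65 and 37 without Rn45s. Leaving out replicate 1 of both regions, an alternative chosen after seeing the data, gave 56 and 48. Region calls between the IPs were 372 with the hypothalamus higher and 401 with it lower, or 800 and 1224 with a replicate block by number, an alternative also added later. Between the inputs they were 182 and 109, or 521 and 576. The cause of these differences was not tested. With 3 dissections a region, genes without a count in a group have only a bound, and hypothalamus input replicate 2 and midbrain input replicate 3 held RNA of pituitary and choroid plexus genes.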

Other observations

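Some called genes not described above were chosen after their values were seen. Utrn, a relative of the dystrophin gene, was at 191, 250 and 185 CPM in the hypothalamus IP and 109, 127 and 137 CPM in the input, with 45.7, 68.5 and 74.3 CPM and 79.1, 83.8 and 91.5 CPM in the midbrain. Its difference was 1.2 (SE 0.2, edgeR adjusted p = 0.0241), lost without replicate 2 of either region. The protocadherin gene Pcdh20 differed by 1.9 (SE 0.26, adjusted p = 0.00653, or 0.0538 without hypothalamus replicate 2). The hyaluronan receptor gene Cd44 differed by 2.17 (SE 0.38, adjusted p = 0.0266), lost without hypothalamus replicates 1 (0.0657) or 2 (0.0702), midbrain replicates 1 (0.0591) or 2 (0.0828), with limma-voom (0.0901) and with a block by number (0.294). Tanc1, a postsynaptic scaffold gene, differed by 1.74 (SE 0.23, adjusted p = 0.00494) and passed in each leave-out. Plekhb1 was depleted in both regions, with enrichments of -1.72 and -3.48 and a difference of 1.76 (SE 0.29, adjusted p = 0.0204), lost without hypothalamus replicates 1 (0.0672) or 2 (0.0862) or midbrain replicate 1 (0.0585).

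Dlk1, an imprinted gene of the Notch ligand family, was at 144, 75.3 and 69.9 CPM in the hypothalamus IP and 344, 218 and 195 CPM in the input, while midbrain IPs and inputs lay between 86.4 and 120 CPM. Its difference was -1.34 (SE 0.16, edgeR adjusted p = 0.00255), and it passed in each leave-out. Cholinergic markers, 6 tested, had a median of -2.53, between -2.69 and -1 over the alternatives. Of these edgeR and limma-voom called 0 and DESeq2 called 4, against 456 of all 18128 genes in DESeq2. In edgeR 5 had an unadjusted p under 0.05, against 1650 of all genes.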
